A study of Homo sapiens with 8 samples.

Results

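MHC class I molecules carry short peptides from inside the cell to its surface, where T cells and natural killer cells read them. To describe this machinery in side population (SP) cells, 9 genes were taken by name from the RNA-seq counts of J82, an established line of human bladder cancer cells. They are the heavy chain genes HLA-B, HLA-C, HLA-E and HLA-F, the light chain gene B2M, and the antigen processing genes TAP1, TAP2, TAPBP and PSMB9. The 9 genes are part of 57820 genes counted, and 8 of them were among the 9309 genes with enough counts to be tested. TAP2 was not.

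J82 cells were grown in DMEM with 10% FBS and sorted by FACS after staining with the DNA dye Hoechst. SP cells are the fraction that kept little dye, non-side population (NSP) cells are the remainder, and the dye 7-AAD marked dead cells. The labels give no drug for either group, and both come from a single cell line. There were 4 SP and 4 NSP libraries, with total counts from 1431823 to 2073526. The paper states far more raw reads per sample, and the reason for this gap was not tested. The libraries were numbered 1 to 4 in each group, and the labels do not say whether a number marks a separate culture or sort. P-values therefore measure the spread between these libraries, which may be technical.

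The identity of the libraries was checked with marker lists. Of 10 leukocyte markers, PTPRC, CD3E, MS4A1 and TYROBP had 0 counts in every library, and the summed level was 43.3 to 98.0 CPM (counts scaled to library size with edgeR's TMM factors) in SP and 20.4 to 58.8 CPM in NSP libraries. Nearly all of it was CD14 and CD68. CD14 had means of 67.0 ± 22.7 and 34.2 ± 17.2 CPM in SP and NSP libraries (± SD over n = 4), with an adjusted p of 0.135 (edgeR), and 2.77e-06 with the replicate number as a block. Of 8 epithelial and mesenchymal markers, KRT8, KRT18, KRT7 and VIM were well counted in every library, whereas EPCAM had 0 or 1 and CDH1 0 to 4 counts per library. The summed level of the 8 was 3779 to 5163 CPM in SP and 5204 to 6880 CPM in NSP libraries. KRT7, a keratin, was lower in SP cells (log2 fold change -1.35, standard error 0.22, adjusted p = 0.00342), and VIM had a log2 fold change of -0.76 (adjusted p = 0.0784, and 3.39e-06 with the block). KRT7 and VIM each have a gene across their exons on the other strand with more counts over the 8 libraries. KRT7-AS had 29032 counts against 6229 for KRT7, and VIM-AS1 had 52960 against 5749 for VIM. KRT8 and KRT18 lie across each other, with 47783 and 5472 counts. The part of these markers in the results below was not tested.

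In the class I pathway, a heavy chain folds with beta-2 microglobulin, the product of B2M. The proteasome, with PSMB9 as a subunit of its interferon-inducible form, cuts proteins into peptides, and the TAP1 and TAP2 transporter pumps these peptides into the endoplasmic reticulum. Tapasin, the product of TAPBP, bridges the transporter and empty class I molecules. HLA-B and HLA-C are classical, highly variable molecules, while HLA-E and HLA-F vary little between people, and HLA-E is known as a ligand of inhibitory natural killer cell receptors.

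HLA-E and HLA-F were higher in SP cells, by 1.65-fold and 1.63-fold, and were the called members among the 8 tested. Calls required an adjusted p below 0.05 together with more than a 1.3-fold difference. By this rule 3.66% of the tested genes were called, 1.63% higher and 2.03% lower in SP cells. HLA-B and HLA-C were not called, and B2M, TAP1, TAPBP and PSMB9 were not called either. At an unadjusted p under 0.05 there were 4 members, HLA-E, HLA-F, TAP1 and TAPBP, where 16.4% of all tested genes passed. The median log2 fold change of the 8 members was 0.25, with 6 above and 2 below 0, beside a median of 0.01 over all tested genes. These are bulk libraries, in which fewer cells of a kind and less RNA per cell cannot be told apart.

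HLA-E (ENSG00000204592.5) is a plus-strand gene of chromosome 6 (GRCh37, 30457286 to 30461971) and has no counted gene across its exons on the other strand. Its level was 445, 588, 636 and 472 CPM in SP replicates 1 to 4 and 335, 385, 313 and 262 CPM in NSP replicates 1 to 4. Every SP library was above every NSP library, and SP replicate 3 was the highest. The mean was 535 ± 91.2 CPM for SP and 324 ± 51.1 CPM for NSP libraries (± SD over n = 4), with 618 to 1174 counts behind each SP value and 379 to 780 behind each NSP value. The log2 fold change was 0.73 (standard error 0.17, 95% interval 0.37 to 1.08, adjusted p = 0.0226 from edgeR). A two-sided exact permutation test on log2(CPM + 1) gave p = 0.0286, the lower limit of p with 4 libraries in each group. The call was lost without SP replicate 2 (adjusted p = 0.0735) and without NSP replicates 1, 3 or 4 (adjusted p = 0.0517, 0.0537 and 0.0722), while the log2 fold change stayed between 0.63 and 0.82.

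HLA-F (ENSG00000204642.9; chromosome 6 of GRCh37, 29690552 to 29706305, plus strand) had 229, 237, 239 and 216 CPM in SP replicates 1 to 4. The NSP replicates 1 to 4 had 144, 172, 132 and 116 CPM. The groups did not overlap, and the SP libraries lay close together, with means of 230 ± 10.1 CPM for SP and 141 ± 23.5 CPM for NSP (± SD over n = 4). The log2 fold change was 0.70 (standard error 0.15, 95% interval 0.38 to 1.02, adjusted p = 0.0164 from edgeR; exact permutation p = 0.0286). It was 0.69 without SP replicate 2 and 0.62 without NSP replicate 4, where the call was lost at adjusted p-values of 0.0503 and 0.053. HLA-E and HLA-F were the members whose groups did not overlap, 2 of 9, and the groups did not overlap for 9.75% of all tested genes.

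**Figure D1:**
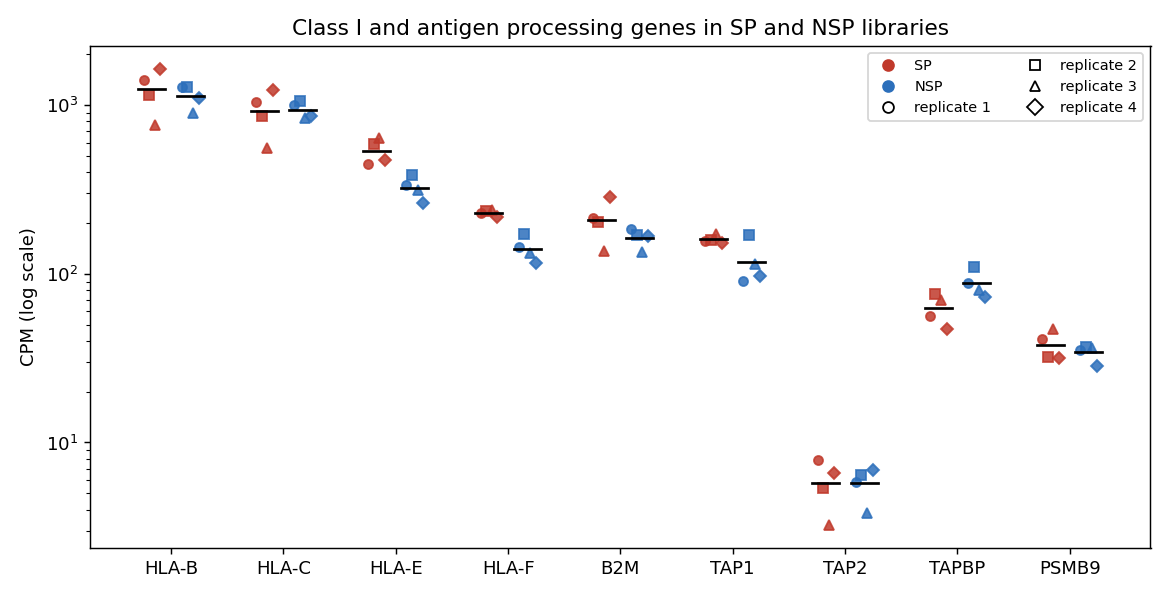
CPM of the 9 genes on a log scale in each SP (red) and NSP (blue) library, with a marker shape per replicate number and a black bar at the group mean (n = 4 each). The red and blue points are apart for HLA-E and HLA-F and mixed for HLA-B, HLA-C and PSMB9, and TAP2 sits below 8 CPM in every library.

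The classical heavy chain genes were the most counted members and spread widely among SP libraries. HLA-B (ENSG00000234745.5; chromosome 6, 31321649 to 31334844, minus strand) had 1407, 1155, 763 and 1644 CPM in SP replicates 1 to 4 and 1277, 1274, 901 and 1101 CPM in NSP replicates 1 to 4. HLA-C (ENSG00000204525.10; chromosome 6, 31236526 to 31239907, minus strand) had 1046, 865, 560 and 1234 CPM in the SP and 1005, 1052, 835 and 861 CPM in the NSP libraries. For both genes SP replicate 3 was the lowest and SP replicate 4 the highest of all 8 libraries, so that the NSP values lay inside the SP range. The log2 fold change was 0.13 for HLA-B (95% interval -0.31 to 0.56, adjusted p = 0.828) and -0.02 for HLA-C (95% interval -0.45 to 0.41, adjusted p = 0.98, both from edgeR). Without SP replicate 3 they were 0.30 and 0.16. Their sequences are alike, and the setting of the counting for reads that match several genes is not given in the sources used here, so the split of reads among the heavy chain genes is uncertain.

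B2M (ENSG00000166710.13; chromosome 15, 45003556 to 45011049, plus strand) followed the order of HLA-B and HLA-C among the SP libraries. It had 215, 202, 136 and 286 CPM in SP replicates 1 to 4 and 184, 170, 134 and 167 CPM in NSP replicates 1 to 4. Each SP library was above the NSP library of its number, in 4 of 4 pairs, but the groups overlapped. How many of all tested genes have 4 of 4 pairs alike was not computed. The log2 fold change was 0.35 (standard error 0.20, 95% interval -0.06 to 0.77, adjusted p = 0.399 from edgeR).

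Among the antigen processing genes, TAP1 and TAPBP had log2 fold changes of opposite sign, and neither was called without a block. TAP1 (ENSG00000168394.9; chromosome 6, 32812986 to 32821593, minus strand) had 156, 160, 173 and 153 CPM in SP replicates 1 to 4 and 91.0, 170, 114 and 97.5 CPM in NSP replicates 1 to 4. NSP replicate 2 reached the SP level, and the other NSP libraries were below all SP libraries. TAP1 had a log2 fold change of 0.44 (standard error 0.19, adjusted p = 0.242, edgeR), and it was called higher with the replicate block (log2 fold change 0.47, adjusted p = 0.0125), a fit in which 12.9% of the tested genes were called, 5.89% higher and 7.00% lower. Without NSP replicate 2 the log2 fold change was 0.67 (adjusted p = 0.0601), and without NSP replicate 1 it was 0.32 (adjusted p = 0.463).

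TAPBP (ENSG00000231925.7; chromosome 6, 33267471 to 33282061, minus strand) had 56.2, 76.4, 70.4 and 47.1 CPM in SP replicates 1 to 4 and 87.8, 110, 79.7 and 73.3 CPM in NSP replicates 1 to 4. It was lower in SP cells in 4 of 4 pairs of the same number, with an overlap between SP replicate 2 and NSP replicate 4. TAPBP had a log2 fold change of -0.49 (standard error 0.19, adjusted p = 0.2, edgeR; exact permutation p = 0.0571), and was called lower with the replicate block (adjusted p = 0.0186). TAP1 can be set against TAPBP within each library, since a ratio of 2 genes needs no scaling. The log2 ratio of TAP1 to TAPBP counts was 1.47, 1.06, 1.29 and 1.69 in the SP libraries and 0.05, 0.62, 0.52 and 0.41 in the NSP libraries, and the groups did not overlap.

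PSMB9 (ENSG00000240065.3; chromosome 6, 32811913 to 32827628, plus strand), whose annotated span overlaps that of TAP1, had 31.7 to 47.1 CPM in SP and 28.3 to 37.04 CPM in NSP libraries. Its log2 fold change was 0.15 (95% interval -0.26 to 0.57, adjusted p = 0.766 from edgeR). TAP2 (ENSG00000204267.9; chromosome 6, 32789610 to 32806516, minus strand) had 6 to 11 counts in SP and 6 to 13 in NSP libraries, or 5.79 ± 1.99 and 5.75 ± 1.36 CPM (± SD over n = 4). A difference in TAP2 was not detectable at this depth (exact permutation p = 0.914).

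**Figure D2:**
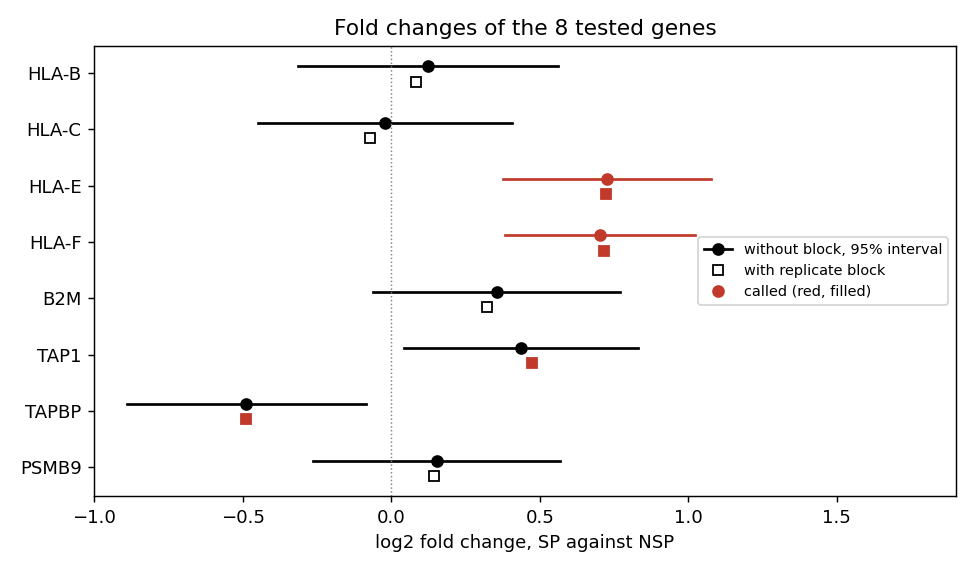
Log2 fold changes of the 8 tested genes, SP against NSP. Circles with bars are the fit without a block and its 95% interval, squares are the fit with the replicate block, and red marks a called gene: HLA-E and HLA-F in both fits, TAP1 and TAPBP with the block.

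A call for HLA-E and none for HLA-C does not show that they differ, so the ratios between genes were compared as well. All 10 pairs of the 5 class I chains, 3 pairs of TAP1, TAPBP and PSMB9, and 5 pairs of a member and a gene across it on the other strand were taken, 18 ratios in all. The log2 ratio of HLA-E to HLA-C counts was -1.23, -0.56, 0.18 and -1.39 in SP replicates 1 to 4 and -1.59, -1.45, -1.42 and -1.71 in NSP replicates 1 to 4. It was higher in SP libraries by 0.79 on average (exact permutation p = 0.0286, 0.0735 after Benjamini-Hochberg adjustment over the 18 ratios, higher in 4 of 4 pairs). The gap between the groups was narrow, SP replicate 4 being the nearest to the NSP libraries, and SP replicate 3 was the one library with more HLA-E than HLA-C counts.

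The ratio of HLA-F to HLA-C was higher in SP libraries by the same size, 0.79, with no overlap of the groups (exact permutation p = 0.0286, adjusted 0.0735). HLA-E and HLA-F had the same mean ratio to each other in both groups: the log2 ratio was 1.20 ± 0.20 in SP and 1.20 ± 0.04 in NSP libraries (SD, n = 4 each). The ratio of HLA-B to HLA-C differed by a small amount that was steady among SP libraries, with log2 values of 0.43 ± 0.01 in SP and 0.27 ± 0.11 in NSP libraries (SD, n = 4 each; exact permutation p = 0.0286, adjusted 0.0735). The log2 ratio of HLA-C to B2M was 2.13 ± 0.10 in SP and 2.52 ± 0.13 in NSP libraries, and that of HLA-B to B2M was 2.56 ± 0.10 and 2.79 ± 0.08, both without overlap of the groups (exact permutation p = 0.0286, adjusted 0.0735). Against HLA-B and B2M the groups overlapped. HLA-E to HLA-B and HLA-F to HLA-B each differed by 0.64 (exact permutation p = 0.143 and 0.0857), and HLA-E to B2M and HLA-F to B2M by 0.40 (exact permutation p = 0.343 and 0.171). HLA-E and HLA-F were thus not set apart from HLA-B or B2M by these tests. The ratio of TAP1 to TAPBP differed most, by 0.98. The groups did not overlap in 7 of the 18 ratios. These ratios share genes and are not separate results, and the share over ratios of other genes was not computed. None of the 18 ratios passed 0.05 after adjustment, and 0.0735 is the smallest value reached. The 7 ratios were all at 0.0286, the lower limit of the exact permutation p with 4 libraries in each group. Their adjusted value was set by how many ratios reached that limit, so it cannot decide whether a single ratio differs.

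**Figure D3:**
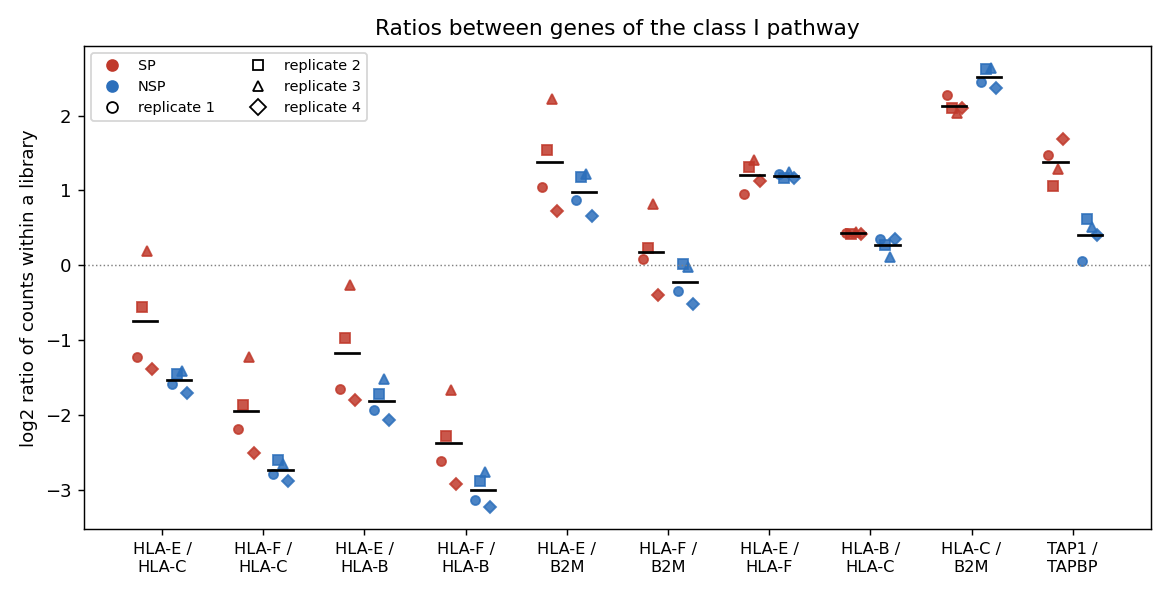
Log2 ratio of the counts of 2 genes within each library, SP in red and NSP in blue, with a marker shape per replicate number and a black bar at the group mean (n = 4 each). The groups are apart for HLA-E and HLA-F against HLA-C, HLA-B against HLA-C, HLA-C against B2M and TAP1 against TAPBP, and they overlap for HLA-E and HLA-F against HLA-B and B2M and for HLA-E against HLA-F.

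Counts on the rows of different genes were compared per kb of annotated exon, an order that need not be that of their expression. HLA-C had 369 ± 114 CPM per kb in SP and 374 ± 42.4 in NSP cells, and HLA-B had 269 ± 81.5 and 246 ± 38.6 (SD, n = 4 each). HLA-E followed with 183 ± 31.2 and 111 ± 17.5 CPM per kb. B2M was below the heavy chains HLA-B, HLA-C and HLA-E, with 67.2 ± 19.8 and 52.4 ± 6.75 CPM per kb. Then came HLA-F, with 53.4 ± 2.34 and 32.7 ± 5.45, and TAP1, with 33.9 ± 1.82 and 24.9 ± 7.57. PSMB9 had 11.4 ± 2.23 and 10.2 ± 1.20, TAPBP 9.41 ± 2.003 and 13.2 ± 2.42, and TAP2 0.559 ± 0.192 and 0.555 ± 0.131 CPM per kb. Over the 8 libraries the ranges of neighbours in this order overlapped, except that TAP1 (19.2 to 36.5 CPM per kb) was above TAPBP (7.09 to 16.6) and PSMB9 (8.49 to 14.1), and these were above TAP2 (0.314 to 0.765).

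These levels are of reads counted on a gene's row, and the strand setting of the counting is not given in the sources used here. Of 1054 pairs of a tested protein-coding gene and a tested lncRNA across its exons on the other strand, the lncRNA had more counts per kb in 969 (91.9%). HLA-B, HLA-F and TAP1 each have a gene on the other strand with more counts than their own, a pseudogene for HLA-B and HLA-F and a lncRNA for TAP1. The pseudogene ENSG00000271581 (chromosome 6, 31324424 to 31325414, plus strand) shares 671 bp with HLA-B exons and had 55085 counts over the 8 libraries, against 15304 for HLA-B. ENSG00000225864 (chromosome 6, 29690758 to 29691748, minus strand), also annotated as a pseudogene, shares 674 bp with HLA-F exons and had 15360 counts, against 2400 for HLA-F. PSMB8-AS1, a lncRNA across 672 bp of TAP1 exons, had 13467 counts, against 1817 for TAP1. PSMB9 shares 139 bp with PSMB8, which had 444 counts, against 474 for PSMB9. On its own strand PSMB9 also shares 174 bp with PSMB8-AS1 and its 13467 counts. Reads of a gene and of its opposite-strand partner cannot be told apart here. A gene's row need not hold all of its own reads, and its partner's row may hold some of them, which was not tested. HLA-C, HLA-E, B2M, TAP2 and TAPBP have no such partner among the counted genes. The strand setting is unknown for their rows as well, so these rows too need not hold all of the genes' own reads.

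The opposite-strand genes were compared in the same fit. ENSG00000225864 had 1488, 1638, 1254 and 1368 CPM in SP replicates 1 to 4 and 901, 1139, 1008 and 758 CPM in NSP replicates 1 to 4. As with HLA-F, no NSP library reached the lowest SP library. The log2 fold change of 0.59 (standard error 0.16) had an adjusted p of 0.0517 by edgeR, 0.0157 by DESeq2 and 2.03e-04 with the replicate block. HLA-F-AS1, a lncRNA across 535 bp of other HLA-F exons, had 19 to 30 counts in SP and 11 to 26 in NSP libraries, with a log2 fold change of 0.67 (adjusted p = 0.216).

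ENSG00000271581, across HLA-B, had 4992, 3927, 2123 and 5595 CPM in SP replicates 1 to 4 and 4751, 4568, 4274 and 4075 CPM in NSP replicates 1 to 4. It had the same low library as HLA-B, SP replicate 3, and a log2 fold change of -0.09 (adjusted p = 0.9), which was 0.13 without that library. PSMB8-AS1 had 1051 to 1236 CPM in SP and 796 to 1169 CPM in NSP libraries, with a log2 fold change of 0.24 (adjusted p = 0.497). When the counts of each member and its opposite-strand genes were added and tested together, HLA-F was still called (log2 fold change 0.61, adjusted p = 0.0434), and TAP1 had a log2 fold change of 0.26 (adjusted p = 0.453).

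**Figure D4:**
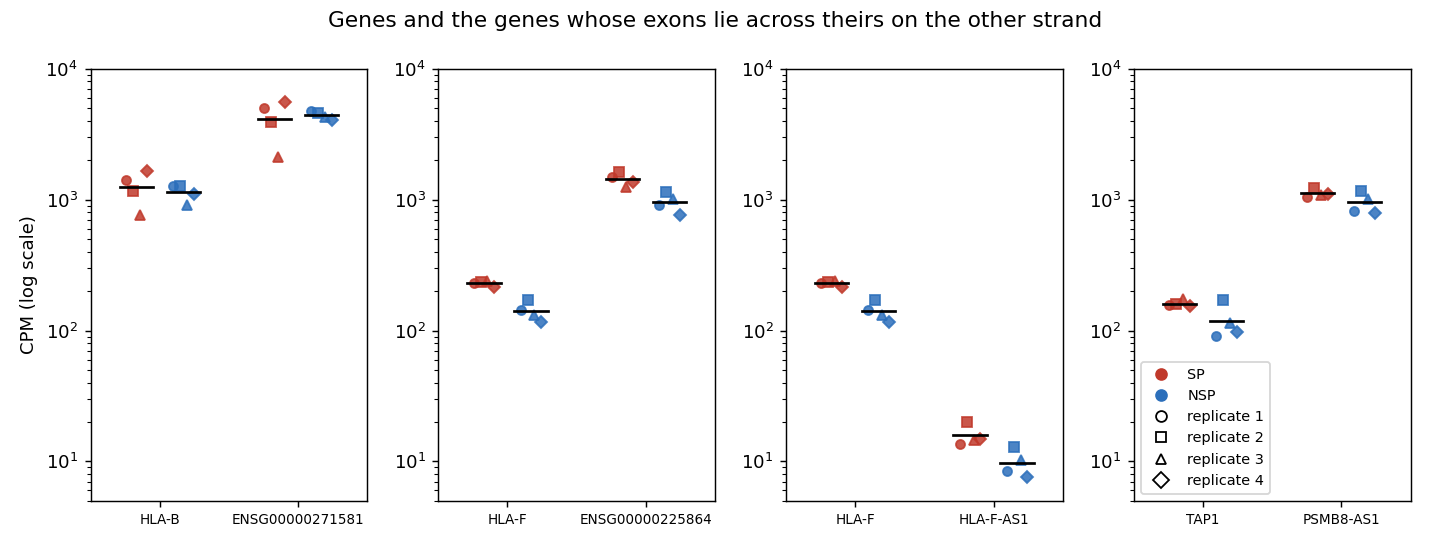
CPM on a log scale of HLA-B, HLA-F and TAP1 beside genes whose exons lie across theirs on the other strand, SP in red and NSP in blue, with a marker shape per replicate number and a black bar at the group mean (n = 4 each). The partner is the higher of the pair except for HLA-F-AS1, and the SP points are above the NSP points for HLA-F and both of its partners.

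Promoters of class I genes hold sites for interferon-regulated factors and for factors that bind a CCAAT box. The bases before the RefSeq start are shown for HLA-F, which was higher in SP cells, and for its relatives HLA-B and HLA-C, which were not called. RefSeq promoters of the build GRCh38.p14 were matched for 8 of the 9 members, all but HLA-E. Each sequence is the 250 bases before the start, 5′ to 3′ on the gene's strand, and capitals mark GAAANNGAA, which is part of the interferon-stimulated response element, AANNGAAA, the core of sites of interferon regulatory factors, and CCAAT, on either strand. AANNGAAA was added after the windows had been read. The windows are chr6:29723184-29723433, plus strand for HLA-F, chr6:31357180-31357429, minus strand for HLA-B and chr6:31272093-31272342, minus strand for HLA-C.
HLA-F: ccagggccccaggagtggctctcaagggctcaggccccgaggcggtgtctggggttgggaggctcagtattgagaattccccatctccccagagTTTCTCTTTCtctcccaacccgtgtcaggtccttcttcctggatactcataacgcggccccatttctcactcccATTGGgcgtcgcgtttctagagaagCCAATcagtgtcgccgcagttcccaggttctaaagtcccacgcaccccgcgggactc
HLA-B: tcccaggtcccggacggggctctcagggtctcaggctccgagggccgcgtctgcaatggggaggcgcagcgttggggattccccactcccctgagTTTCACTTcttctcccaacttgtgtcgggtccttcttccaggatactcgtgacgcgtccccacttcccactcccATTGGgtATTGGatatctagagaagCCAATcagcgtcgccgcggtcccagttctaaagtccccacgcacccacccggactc
HLA-C: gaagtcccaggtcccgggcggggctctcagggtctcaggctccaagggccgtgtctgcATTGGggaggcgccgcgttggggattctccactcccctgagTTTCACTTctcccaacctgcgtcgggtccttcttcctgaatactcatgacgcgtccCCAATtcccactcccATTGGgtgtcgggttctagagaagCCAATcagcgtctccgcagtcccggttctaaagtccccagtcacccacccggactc

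The HLA-B and HLA-C windows were identical at 226 of 254 aligned positions (89.0%), and HLA-F shared 80.4% with HLA-B and 78.7% with HLA-C. All 3 hold CCAAT on either strand at least 2 times. The letters AANNGAAA lie 156 to 149 bases before the start of HLA-F, 155 to 148 before that of HLA-B and 151 to 144 before that of HLA-C, and they occurred in 7 of the 8 members matched, all but PSMB9, and in 20.3% of 34788 RefSeq windows of this length. The longer GAAANNGAA overlaps them in the HLA-F window and does not occur in those of HLA-B and HLA-C, where other letters stand beside the same core. GAAANNGAA was present in 5 of the 8 members, HLA-F, B2M, TAP1, TAP2 and TAPBP, and in 6.89% of all windows. CCAAT was in 6 of the 8 and in 32.0% of all windows.

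The windows of B2M (chr15:44711267-44711516, plus strand), TAP1 (chr6:32853705-32853954, minus strand) and TAPBP (chr6:33314079-33314328, minus strand) are shown because these genes hold GAAANNGAA and had log2 fold changes of either sign. In each of them 2 matches of GAAANNGAA overlap each other and those of AANNGAAA. The capitals of TAPBP also include GGGANTTCC, an NF-kB-like stretch present in 1.60% of all windows. Other spellings of NF-kB-like sites were not searched, so a window without these capitals may still hold one.
B2M: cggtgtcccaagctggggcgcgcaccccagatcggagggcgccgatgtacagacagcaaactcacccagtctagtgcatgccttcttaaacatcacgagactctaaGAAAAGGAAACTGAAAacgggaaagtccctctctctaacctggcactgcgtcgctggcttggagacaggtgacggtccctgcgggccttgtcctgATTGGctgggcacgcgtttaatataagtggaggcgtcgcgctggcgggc
TAP1: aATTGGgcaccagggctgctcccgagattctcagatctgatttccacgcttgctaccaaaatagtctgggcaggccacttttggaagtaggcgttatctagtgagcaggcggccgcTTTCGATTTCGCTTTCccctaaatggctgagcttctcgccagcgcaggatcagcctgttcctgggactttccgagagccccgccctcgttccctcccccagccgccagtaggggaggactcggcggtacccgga
TAPBP: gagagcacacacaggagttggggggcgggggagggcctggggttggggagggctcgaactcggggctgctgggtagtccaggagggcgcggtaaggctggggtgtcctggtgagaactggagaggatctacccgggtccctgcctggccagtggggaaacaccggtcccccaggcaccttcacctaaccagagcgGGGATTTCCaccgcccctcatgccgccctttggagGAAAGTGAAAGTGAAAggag

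TTCNNNGAA, the gamma-activated site, and TGACGTCA and TGATGTCA, forms of the X2 box, were in none of these 8 windows. Only these exact letters were searched, so the windows may hold an X2 box or another such site in a different spelling. A second RefSeq start of TAP1, not printed, has TTCNNNGAA 189 to 181 bases before it. TTCNNNGAA, TGACGTCA and TGATGTCA occurred in 6.57%, 1.64% and 2.36% of all windows, respectively. A match of letters is a description of the window and not a bound site.

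The rest of the pathway was read from lists of related genes. A counted gene on the other strand lies across exons of 7 of 14 proteasome and trimming genes and 5 of 9 folding genes. The same holds for 3 of 10 class I relatives, 7 of 17 regulators and 5 of 10 class II genes, and for 54.2% of all tested genes. Their rows have the same limit as those of the members. Of 14 genes of the proteasome and of peptide trimming, 12 were tested and 0 were called in either direction, also with the replicate block, and 0 had an unadjusted p under 0.05 (edgeR). DESeq2 called 0 as well. The log2 fold changes ran from -0.14 for TPP2, a cytosolic peptidase, to 0.44 for PSMB6, a constitutive proteasome subunit (mean 20.8 ± 6.39 CPM for SP and 15.3 ± 3.80 CPM for NSP, adjusted p = 0.47). PSMB5, another constitutive subunit, had a log2 fold change of 0.27 (adjusted p = 0.584). PSMB8, an interferon-inducible subunit like PSMB9, had 37.3 ± 5.35 CPM for SP and 30.9 ± 7.41 CPM for NSP (± SD over n = 4; log2 fold change 0.26, adjusted p = 0.59).

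Of 9 genes of folding and quality control in the endoplasmic reticulum, all were tested, 0 were called by edgeR, with or without the block, or by DESeq2, and 0 had an unadjusted p under 0.05. Their log2 fold changes stayed between -0.18 and 0.12. CALR, the chaperone calreticulin of the peptide loading complex, had 786 ± 81.2 CPM for SP and 769 ± 113 CPM for NSP (± SD over n = 4; log2 fold change 0.03, 95% interval -0.29 to 0.36). SEC61A1, a subunit of the translocation channel, and TAPBPL, a tapasin relative, were at the low end, with log2 fold changes of -0.17 (adjusted p = 0.582) and -0.18 (adjusted p = 0.743), and HSPA5, the chaperone BiP, had 0.12 (adjusted p = 0.744). TAPBP thus had a lower value than every gene of this list, a difference that was not tested.

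Of 10 class I relatives, 4 were tested, 0 were called by edgeR, with or without the block, or by DESeq2, and 0 had an unadjusted p under 0.05. HFE, a class I-like regulator of iron uptake, had a log2 fold change of 0.53 (adjusted p = 0.416), and MICA, a stress-induced ligand of natural killer cells, 0.17 (adjusted p = 0.821). HLA-G, a further non-classical heavy chain gene, had 7 to 13 counts in SP and 11 to 23 in NSP libraries and a log2 fold change of -0.59 (95% interval -1.30 to 0.13, adjusted p = 0.418). Its sign was opposite to that of HLA-E and HLA-F.

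Of 17 regulators of class I expression, 11 were tested and 0 were called by edgeR, with or without the block, or by DESeq2. The median log2 fold change was 0.22, with 9 above and 2 below 0, where 51.8% of all tested genes were above 0. An unadjusted p under 0.05 was reached by 2 of the 11, beside 16.4% of all tested genes. NLRC5, the transactivator of class I genes, had 12.2, 20.1, 28.2 and 14.0 CPM in SP replicates 1 to 4 and 11.7, 9.38, 16.6 and 8.30 CPM in NSP replicates 1 to 4 (log2 fold change 0.72, standard error 0.31, adjusted p = 0.255). It was highest in SP replicate 3, as were HLA-E, HLA-F, TAP1 and PSMB9. IRF1, an interferon-induced activator, had a log2 fold change of 0.45 (adjusted p = 0.291), and both NLRC5 and IRF1 were higher in SP cells in 4 of 4 pairs. With the replicate block in edgeR their adjusted p-values were 0.0638 and 0.12. The share of all tested genes with 4 of 4 pairs alike was not computed.

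Of 10 class II genes, which serve peptide presentation in professional antigen-presenting cells, 2 were tested and 0 called by edgeR, with or without the block, or by DESeq2, and 0 had an unadjusted p under 0.05. They were CIITA, their transactivator, with a log2 fold change of -0.17 (adjusted p = 0.689), and CD74, the invariant chain, with -0.48 (adjusted p = 0.473). HLA-DRB1 and HLA-DPB1 had 0 counts in every library, and HLA-DRA had 0 to 5 per library.

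**Figure D5:**
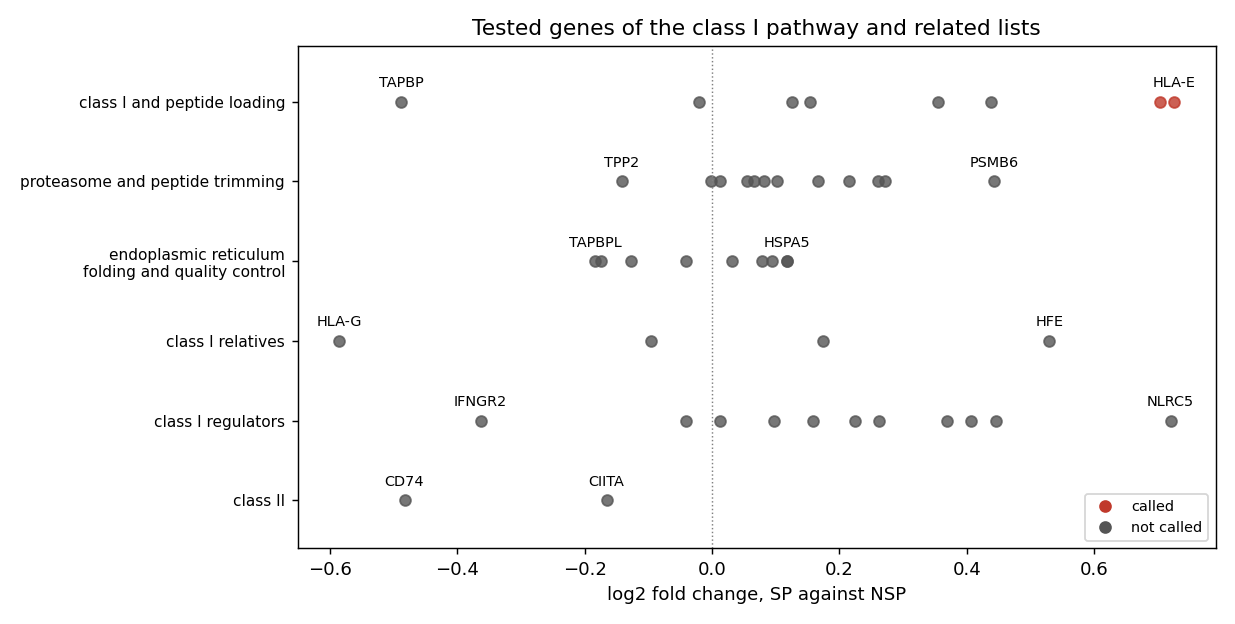
Log2 fold changes, SP against NSP, of the tested members and the tested genes of 5 pathway lists, without the marker lists, with called genes in red and the lowest and highest of each list named. HLA-E and HLA-F are the red points, and the genes of folding and quality control stay between -0.18 and 0.12.

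The tested genes most like the members were found by the Pearson correlation, over the 8 libraries, of their log2(CPM + 1) with the mean standardized value of the 8 tested members. They were TST (r = 0.966), PPP1R35 (0.964), CAPN1-AS1 (0.962), MCRIP2 (0.957) and PWWP2A (0.950), picked as the highest of all tested genes. The points share the libraries and their scaling. None of the 5 was called, with log2 fold changes of 0.22 to 0.90 and adjusted p-values of 0.223 to 0.699.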

How the data were processed

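The authors made mRNA libraries (KAPA mRNA HyperPrep), aligned single-end 50-bp reads to hg19 by STAR, assigned them to gencode version 19 genes by featureCounts (Subread), and deposited raw counts per gene without normalization. Versions, strand and multi-mapping settings are not given in the sources used here. Columns were matched to samples by name.

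Identifiers without version were joined to the GENCODE v44 annotation mapped to GRCh37, the build of hg19; 55538 of 57820 had an entry, and exon lengths can differ from version 19. The test of the counts was edgeR's quasi-likelihood test (edgeR 4.0.16, R 4.3.3) with TMM scaling (filterByExpr with a minimum count of 10 and total of 15, glmQLFit, glmQLFTest), checked on simulated data. Genes were called at an adjusted p under 0.05 over all tested genes and a fold change over 1.3. Standard errors are the log2 fold change over the root of F. Ratios used counts plus 0.5. Alternatives used DESeq2 1.42.0 and limma 3.58.1; promoters were aligned with Biopython 1.88 (Python 3.11.15).

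Deviations of same-numbered SP and NSP libraries from their group means correlated at 0.380, 0.203, 0.322 and 0.321. The highest correlation of each SP library with an NSP library of another number was -0.062, 0.124, -0.014 and -0.038. The margin was thus small for replicate 2. The numbers were taken as pairs and the replicate block run beside the main test. The main test and the exact permutation tests do not use the pairs. Replicates differed by more than sampling noise (chi-square per degree of freedom 5.70 to 13.2). Named genes are the members, called genes of the lists, up to 3 others per pathway list with the smallest p, opposite-strand genes and the 5 genes of the most similar pattern; others were chosen after their values were seen, and 1 gene of the regulator list is not reported here. The members and lists were chosen with earlier results of these data known.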

Additional observations from a re-analysis of the deposited data

Results flagged for a closer look

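In 2 of 40 groups of 4 libraries, where chance gives about 2, a library lay far from the other 3, its gap to the nearest being over Dixon's 95% limit as a share of the group's range. It was SP replicate 2 for HLA-F-AS1, with 20.1 CPM against 13.7 to 14.7 in the other SP libraries (0.839 of the range). It was NSP replicate 2 for PSMB8, with 42.0 CPM against 26.6 to 28.3 in the other NSP libraries (0.886 of the range).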

How the results depend on the processing

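Among the alternatives, HLA-E was called in 12 of 18 and HLA-F in 14 of 17, always with a positive log2 fold change, of 0.63 to 0.82 and 0.61 to 0.81. For HLA-F the calls include that of its sum with opposite-strand genes, which are most of that sum. TAP1 (0.26 to 0.67) and TAPBP (-0.60 to -0.36) kept their sign and were called in 1 each, the replicate block. DESeq2's size factors, upper-quartile normalization, limma voom and at least 10 counts in every library kept both calls, as did DESeq2 and no filter on low counts. The count of members called higher was 0 when differences had to exceed 1.3-fold in the test itself, a stricter demand, and 0 without genes that have an opposite-strand exon overlap, where 4 members were tested, HLA-F was left out and HLA-E had a log2 fold change of 0.66 (adjusted p = 0.0513). In that setting 1 member had groups that did not overlap. With single libraries left out, 0 to 2 members were called higher, 0 without SP replicate 2 or NSP replicate 4 and 1 without NSP replicate 1 or 3. The causes were not tested unless given.

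With the replicate block, 1 member was called lower, and 548 genes were higher and 652 lower in place of 152 and 189. Other counts over all genes were 303 higher and 381 lower without a filter, 51 and 67 with that stricter demand, 59 and 62 without genes that have an opposite-strand overlap, and 69 to 164 higher and 89 to 181 lower without single libraries, the lowest without NSP replicate 2. The line markers called lower, 1 in the main test, were 2 with DESeq2, without a filter and with the block, 0 without opposite-strand overlaps and 1 to 2 without single libraries. The leukocyte markers called higher were 1 (CD14) without a filter and with the block.

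HLA-B changed sign to -0.041 when summed with its opposite-strand gene. Without single libraries it ranged from -0.045 to 0.30, HLA-C from -0.19 to 0.16 and ENSG00000271581 from -0.27 to 0.13. The block changed no call among the members, lists and opposite-strand genes other than TAP1, TAPBP, CD14, VIM and ENSG00000225864. The median of all tested genes stayed between 0.00 and 0.05 in every setting. TAP2, the class II chains and most relatives had too few counts to be tested, and intervals cover the spread between libraries only.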

Other observations

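Within single libraries, HLA-B counts were higher in SP cells against those of ENSG00000271581, the gene across its exons on the other strand. The log2 ratio was -1.83, -1.76, -1.48 and -1.77 in SP replicates 1 to 4 and -1.90, -1.84, -2.25 and -1.89 in NSP replicates 1 to 4. The difference was 0.26 (exact permutation p = 0.0286, adjusted 0.0735 over 18 ratios, higher in 4 of 4 pairs). HLA-F against ENSG00000225864 differed by 0.12 (p = 0.4) and TAP1 against PSMB8-AS1 by 0.23 (p = 0.0857, both exact permutation tests). Over the 1054 pairs of a protein-coding gene and an opposite-strand lncRNA, the median difference in log2 fold change was 0.19, with quartiles of 0.01 and 0.35. TAP1 against PSMB8-AS1 is such a pair, while the partners of HLA-B and HLA-F above are pseudogenes. What sets this shift was not tested.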
